A study of Mus musculus with 4 samples.

Results

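The genes of 7 channels were followed in the mouse small intestine, in crypt cells sorted by *Ret* reporter fluorescence and in organoids treated with GDNF. They were *Trpa1*, *Trpm2*, *Trpm4*, *Trpm7*, *Trpc1*, *Piezo1* and *Piezo2*, chosen by symbol among 31053 Ensembl gene identifiers, and all 7 had an entry in both count tables. The sorted cells came from crypts of male *Ret* EGFP/+ mice, heterozygous for a knock-in that places EGFP at the *Ret* locus. EGFP+ cells (Ret-EGFP+, 5 libraries) were compared with cells of the same crypts outside that gate (non-EGFP, 5 libraries), with 1000 cells in a library and 1 or 2 libraries of each kind from each of 3 mice. The reporter allele was therefore shared by both groups, although the deposited labels give the genotype of every library as WT. The organoids were grown from wild-type crypts in ENR medium for 4 days, with GDNF and its co-receptor GFRA1 at 500 ng/mL each (GDNF, 6 libraries) or without them (control, 6 libraries), in 3 experiments of 1 mouse each (female in experiments 1 and 2, male in experiment 3). The age of the mice is not given for single libraries. Total counts were 1185426 to 3222485 in Ret-EGFP+ libraries and 1113006 to 4717549 in non-EGFP libraries, and 1042028 to 2010359 in GDNF and 1106882 to 1983259 in control organoids.

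TRP channels are cation channels opened by chemicals, temperature, lipids, calcium or redox signals, and PIEZO channels are opened by stretch of the membrane. In the gut, enterochromaffin (EC) cells, the serotonin-producing enteroendocrine cells (EECs), use TRPA1 to sense irritants and PIEZO2 to sense mechanical force, and both channels have been linked to serotonin release. RET is the receptor through which GDNF signals. The sorted cells were therefore used to compare channel transcripts between pools of cells inside and outside the EGFP+ gate. The organoids were used to ask whether GDNF, given with GFRA1, changed those counted well enough to be tested.

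The sorting was first checked on marker genes. *Ret* itself had 402 counts over the Ret-EGFP+ libraries, against 10 over the non-EGFP libraries. EC cell markers were higher in Ret-EGFP+ cells for 13 of 14 genes, and their summed level was 15331 to 22932 CPM (each count scaled to a common library size, with TMM factors), against 1111 to 3782 CPM in non-EGFP cells. The exception was *Adra2a*, an adrenergic receptor of EC cells, with 3 counts in Ret-EGFP+ and 109 counts in non-EGFP libraries. General EEC markers were higher for 13 of 14 genes. The non-EGFP libraries held the markers of the other lineages. Summed tuft cell markers were 10.6 to 16.1 CPM in Ret-EGFP+ and 552 to 1601 CPM in non-EGFP cells, with 10 of 10 genes fitted lower in Ret-EGFP+ cells. With filterByExpr, a stricter filter, 7 were fitted and all 7 were lower. A gene that enters the fit through non-EGFP libraries alone has to be lower, so these numbers of genes are a description. Goblet and Paneth cell markers were 15108 to 21503 CPM in Ret-EGFP+ and 227704 to 512968 CPM in non-EGFP cells, with 11 of 11 lower. Of 12 enterocyte and stem cell markers 11 were lower and *Sis*, the sucrase-isomaltase gene, was higher. Of 22 stromal, endothelial, neural and immune markers, 8 had no count in any sorted library and 10 were fitted. Of those fitted, 5 were lower in Ret-EGFP+ cells, the immune genes *Ptprc*, *Cd8a*, *Lyz2*, *Cd68* and *Mcpt1* (chosen after their values were seen). Summed levels of the list overlapped, at 8.85 to 30.8 CPM in Ret-EGFP+ and 13.6 to 128 CPM in non-EGFP libraries. With filterByExpr 1 gene of the list was fitted and it was not called, so these calls too are a description. The part of these other cell types in the differences below was not tested. In bulk libraries fewer cells of a type and less RNA per cell cannot be told apart.

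Of the 7 genes, 6 passed the filter on low counts in sorted cells. By the quasi-likelihood test of edgeR (adjusted p under 0.1 over 13443 genes), *Trpc1*, *Trpm2* and *Trpa1* were higher in the Ret-EGFP+ cells, *Piezo1* was lower there, and *Trpm4* and *Trpm7* did not pass. Calls were common in this comparison: 21.5% of all genes tested were called higher and 21.5% lower. *Trpc1* passed the filter through its counts in Ret-EGFP+ libraries alone and *Piezo1* through those in non-EGFP libraries alone, so both had to differ, and their fitted values are given as a description. The median log2 fold change of the 6 genes was 0.40, and that of all genes tested was 0.10. The choice of scaling moved the whole distribution. Scaled by total counts alone, the median of all genes was 0.66, and 71.9% of the called genes were higher in Ret-EGFP+ cells in place of 50.0%.

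**Figure D1:**
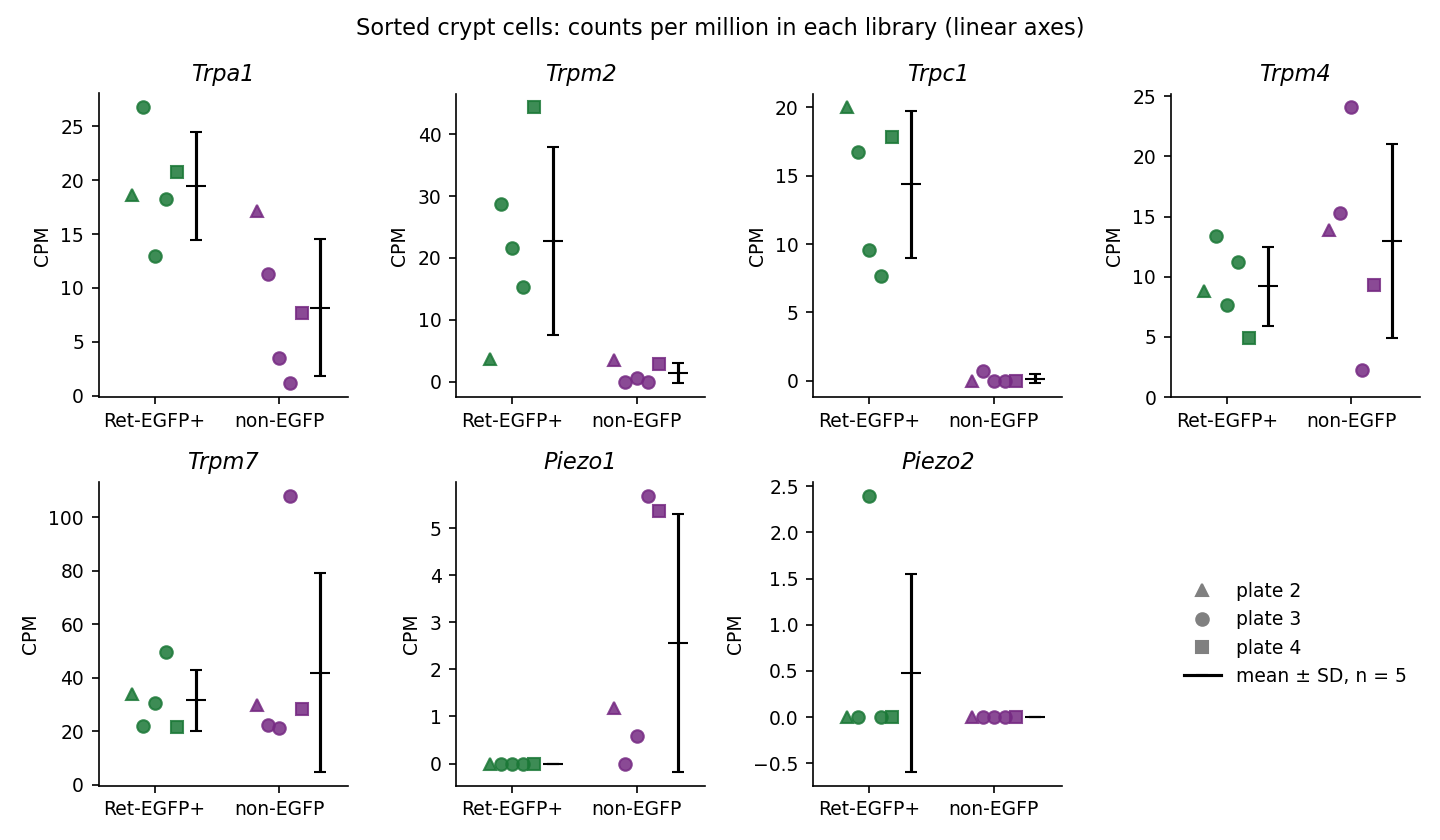
Level of the 7 channel genes in each library of sorted cells, as CPM on linear axes, with Ret-EGFP+ cells (green) left of non-EGFP cells (purple). Symbols mark the plate, and bars show the mean ± SD of 5 libraries. *Trpc1* and *Trpm2* separated the groups, *Trpa1* overlapped, and *Piezo1* had no count in Ret-EGFP+ cells.

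*Trpa1* encodes the channel opened by electrophilic irritants such as mustard oil. It lies at chr1:14872648-14918862 on the minus strand (GRCm38). In Ret-EGFP+ libraries its level was 18.6 CPM on plate 2, 26.8, 12.9 and 18.3 CPM on plate 3 and 20.8 CPM on plate 4. In non-EGFP libraries it was 17.2 CPM on plate 2, 11.3, 3.53 and 1.14 CPM on plate 3 and 7.63 CPM on plate 4. Within each plate every Ret-EGFP+ library was above the non-EGFP ones, but over all plates the plate 2 library of non-EGFP cells overlapped the Ret-EGFP+ range. The means were 19.5 ± 5.00 CPM in Ret-EGFP+ against 8.15 ± 6.36 CPM in non-EGFP cells (SD, n = 5 each). The log2 fold change was 1.16 ± 0.50 (SE, edgeR adjusted p = 0.0758). This call was lost when any 1 of 6 libraries was left out (Ret-EGFP+ libraries 1, 2 and 5 and non-EGFP libraries 3, 4 and 5, adjusted p 0.105 to 0.152) and within sequencing pool 1 alone (log2 fold change 1.10, adjusted p = 0.188).

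Because *Trpa1* is an EC cell gene, it was also set against *Tph1*, the gene of the rate-limiting enzyme of serotonin synthesis. The Ret-EGFP+ libraries held 55, 40, 27, 31 and 76 *Trpa1* counts beside 818, 544, 692, 661 and 1991 *Tph1* counts. The non-EGFP libraries held 73, 31, 6, 1 and 27 *Trpa1* counts beside 153, 117, 27, 19 and 59 *Tph1* counts. Per 100 *Tph1* counts there were thus 3.82 to 7.35 *Trpa1* counts in Ret-EGFP+ libraries, against 5.26 to 47.7 in non-EGFP libraries. Pooled over the libraries, the value was 4.87 for Ret-EGFP+ against 36.8 for non-EGFP cells.

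With 1 CPM added to both genes, the log2 ratio of *Trpa1* to *Tph1* averaged -4.22 ± 0.43 in Ret-EGFP+ cells and -1.84 ± 0.97 in non-EGFP cells (SD, n = 5 each). On this scale the ratio was 5.22-fold lower in Ret-EGFP+ cells (difference -2.38, exact permutation test, two-sided, p = 0.00794, the smallest that 252 splits can give, adjusted p = 0.0317 over 4 planned ratios). The groups were separate only through the CPM added: without it non-EGFP library 4, with 1 *Trpa1* count beside 19 *Tph1* counts, stood at 5.26 per 100, inside the Ret-EGFP+ range. With 0.5 CPM added the difference was -2.30 (exact permutation p = 0.0159, adjusted p = 0.0635). *Trpa1* was thus higher in CPM in Ret-EGFP+ cells and lower per *Tph1* count. *Tph1* itself averaged 382 CPM in Ret-EGFP+ against 26.5 CPM in non-EGFP cells (log2 fold change 3.82), a larger difference than that of *Trpa1*. The difference was -2.18 per *Chga*, -1.93 per *Slc18a1* and -1.85 per *Chgb*. It was -0.62 per *Tac1* (exact permutation p = 0.349) and -0.83 per *Ddc* (exact permutation p = 0.143), where the test was not passed. Without plate 4 it was -2.08 (exact permutation p = 0.0286, the smallest that split allows, adjusted p = 0.114). The ratio is one of transcripts, not of cells, and *Tac1*, *Ddc* and the other denominators were added after the data had been seen, apart from *Chga*.

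**Figure D2:**
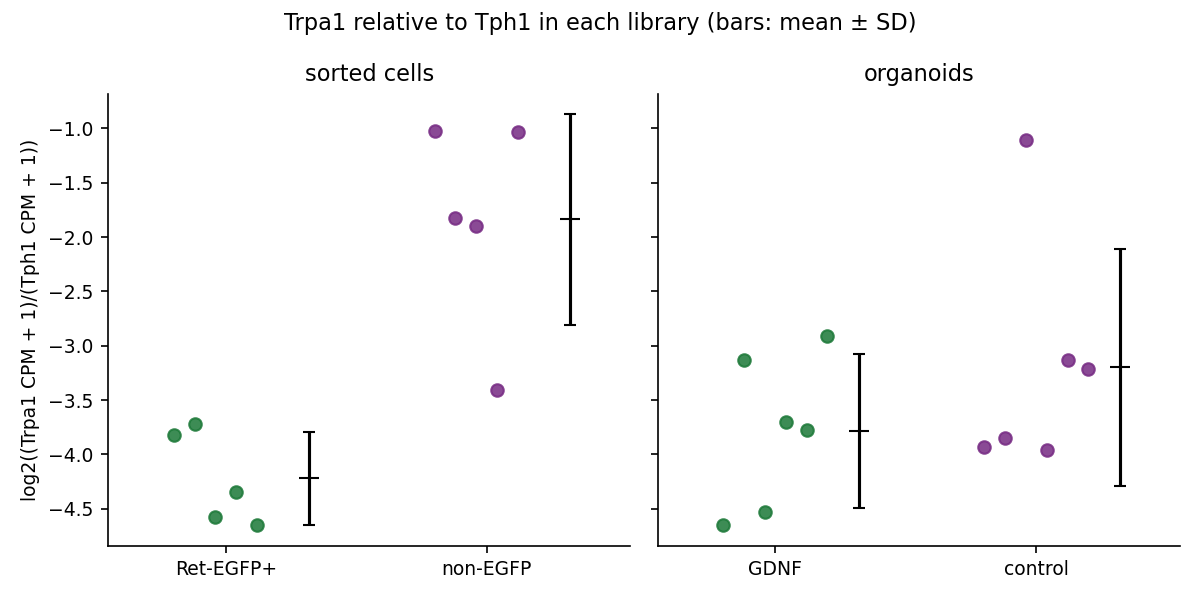
Log2 ratio of *Trpa1* to *Tph1* in each library, with 1 CPM added to both, in sorted cells (Ret-EGFP+ left of non-EGFP) and organoids (GDNF left of control). Bars show the mean ± SD. In sorted cells the Ret-EGFP+ libraries lay between -4.65 and -3.72, and the non-EGFP libraries between -3.40 and -1.03, where the lowest is non-EGFP library 4, whose counts without the added CPM fall inside the Ret-EGFP+ range. In organoids the groups overlapped.

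*Trpm2* encodes a calcium-permeable channel opened by ADP-ribose and engaged by oxidative stress (chr10:77907722-77970563, minus strand). Its level in Ret-EGFP+ libraries was 3.73 CPM on plate 2, 28.8, 21.6 and 15.3 CPM on plate 3 and 44.3 CPM on plate 4. In non-EGFP libraries it was 3.52 CPM on plate 2, 0, 0.588 and 0 CPM on plate 3 and 2.83 CPM on plate 4. The groups did not overlap, although the libraries of plate 2 nearly met.

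*Trpm2* averaged 22.8 ± 15.2 CPM in Ret-EGFP+ against 1.39 ± 1.67 CPM in non-EGFP cells (SD, n = 5 each), a log2 fold change of 3.72 ± 0.74 (SE, edgeR adjusted p = 0.000326). The call held in all 20 alternatives run, with log2 fold changes of 3.36 to 4.35, the highest without non-EGFP library 1. Of the genes that make or consume the ligand of the channel, *Cd38*, an ADP-ribose-producing ectoenzyme, was lower in Ret-EGFP+ cells (1.07 CPM, against 18.9 CPM in non-EGFP cells, log2 fold change -3.93, edgeR adjusted p = 0.000111). *Parp1*, which builds poly(ADP-ribose), averaged 66.1 CPM in Ret-EGFP+ against 64.3 CPM in non-EGFP cells, and *Parg*, which breaks it down, 13.3 CPM and 15.6 CPM in the same order, and neither passed the test (log2 fold changes 0.04 and -0.20).

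*Trpc1* encodes a subunit of non-selective cation channels that act downstream of receptors coupled to phospholipase C (chr9:95705082-95750375, minus strand). It had 59, 25, 20, 13 and 65 counts in the Ret-EGFP+ libraries and 2 counts in all non-EGFP libraries together, both in library 2. In CPM the Ret-EGFP+ libraries held 20.0, 16.7, 9.59, 7.67 and 17.8, and the only non-EGFP library with a count held 0.728. The summed levels stood at a ratio of 101-fold (exact 95% counting interval 27.4 to 836), an interval that covers counting error only.

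The fitted log2 fold change of *Trpc1* was 6.13 ± 0.91 (SE, edgeR adjusted p = 9.06e-06), for a gene that entered the fit through the Ret-EGFP+ libraries alone. Leaving out non-EGFP library 2 moved the fitted value to 8.16, a figure that then rests on a group with no counts. *Orai2*, a pore subunit of store-operated calcium entry, was higher at 18.0 CPM in Ret-EGFP+ against 4.27 CPM in non-EGFP cells (log2 fold change 1.96 ± 0.60 SE, edgeR adjusted p = 0.014). The related *Orai1* averaged 19.3 CPM in Ret-EGFP+ against 26.5 CPM in non-EGFP cells and the calcium sensor *Stim1* 18.1 CPM in Ret-EGFP+ against 10.6 CPM in non-EGFP cells, and neither passed. The related sensor *Stim2* was higher (chosen after its values were seen). It averaged 57.6 CPM in Ret-EGFP+ against 36.6 CPM in non-EGFP cells (log2 fold change 0.65, edgeR adjusted p = 0.0914).

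The sequences just upstream of the RefSeq start are shown for the 4 channel genes that have an entry in the RefSeq promoter set used here, since *Trpm2* and *Trpc1* were higher in the same cells while *Piezo1* was lower and *Trpm7* was not called. Each line gives the 30 bases before the start, 5′ to 3′ on the gene's strand (minus for all 4, GRCm38.p6), at chr10:77969873-77969902, chr9:95750349-95750378, chr8:122551330-122551359 and chr2:126876262-126876291 in the order printed. The gene limits given in the text are those of GENCODE, and the RefSeq start lay 691 bases inside them for *Trpm2*, 27 bases inside for *Trpc1*, at the same base for *Piezo1* and 31 bases outside for *Trpm7*. Capitals mark a GC box (GGGCGG, or CCGCCC on the other strand) or a TATA box (TATAAA).
Trpm2: gctgagtgacgcagagtgcgGGGCGGgcca
Trpc1: cttaagccCCGCCCcggtgtcgtcgcctcc
Piezo1: cgagctTATAAAggcccgcaggcgggagca
Trpm7: cccttcacgtgacacgccctccgcgcgacg

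Over the window of 250 bases before to 50 after the start, a GC box was present for *Trpm2* (beginning 10 bases before the start), for *Trpc1* (22, 51 and 66 bases before) and for *Piezo1* (40 bases before), and for 35.7% of all 32851 windows. A TATA box was present for *Piezo1* (24 bases before) and, on the other strand, for *Trpm2* (240 bases before), and for 13.6% of all windows. CAGATG, an E-box of the kind that NEUROD1 binds, was found on either strand in 17.2% of windows and of the 4 genes for *Trpm7* (228 bases before). These are matches of letters, searched on both strands. *Neurod1* itself was higher in Ret-EGFP+ cells (634 CPM, against 28 CPM in non-EGFP cells), and *Trpm7*, which held the E-box match, was not called. A link between them was not tested.

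*Trpm4* encodes a channel opened by intracellular calcium that passes sodium and depolarises the cell (chr7:45302632-45333780, minus strand). It held 4.93 to 13.4 CPM in Ret-EGFP+ libraries, with a median of 8.81 CPM, against 2.27 to 24.1 CPM in non-EGFP libraries, with a median of 13.9 CPM. The non-EGFP range enclosed the Ret-EGFP+ range. The log2 fold change was -0.53 ± 0.53 (SE, edgeR adjusted p = 0.47, approximate 95% interval -1.58 to 0.51), and with total counts alone it was 0.06. *Abcc8*, the sulfonylurea receptor known to assemble with TRPM4 as well as with potassium channels, was among the most unequal of the partner genes, at 76.8 CPM in Ret-EGFP+ against 2.66 CPM in non-EGFP cells (log2 fold change 4.61 ± 0.44 SE, edgeR adjusted p = 1.01e-08). *Kcnj11*, the potassium channel pore that pairs with this receptor, averaged 4.11 CPM in Ret-EGFP+ against 1.00 CPM in non-EGFP cells and did not pass the test.

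*Trpm7* encodes a magnesium- and zinc-permeable channel fused to a kinase (chr2:126791565-126876230, minus strand). It held 33.9, 22.1, 30.7, 49.5 and 21.6 CPM in the Ret-EGFP+ libraries and 29.8, 22.6, 21.2, 108 and 28.3 CPM in the non-EGFP libraries. Apart from non-EGFP library 4, the shallowest of the sorted libraries, every value lay between 21.2 and 49.5 CPM. The log2 fold change was -0.36 ± 0.40 (SE, edgeR adjusted p = 0.524, approximate 95% interval -1.15 to 0.43). It was 0.30 without non-EGFP library 4 and 0.20 with total counts alone, neither of which passed. Among magnesium transporters *Cnnm4* was lower in Ret-EGFP+ cells (5.01 CPM, against 37.8 CPM in non-EGFP cells, log2 fold change -2.89 ± 0.41 SE, edgeR adjusted p = 5.77e-06). The others listed went both ways (chosen after their values were seen). *Slc41a1* was higher at 7.95 CPM in Ret-EGFP+ against 1.27 CPM in non-EGFP cells (log2 fold change 2.72, edgeR adjusted p = 0.0368). *Magt1* and *Mrs2* were lower (log2 fold changes -0.56 and -0.90), and *Cnnm2* and *Cnnm3* did not pass.

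The PIEZO genes were at the limit of detection. *Piezo1* (chr8:122481698-122551329, minus strand), the stretch-activated channel of many epithelia, had no count in any of the 5 Ret-EGFP+ libraries, which allows up to 0.253 CPM over the group. It had 5, 0, 1, 5 and 19 counts in the non-EGFP libraries. The non-EGFP level, with its 30 counts taken as exact, was 9.05-fold above the floor of 3 counts over the Ret-EGFP+ group. This is no lower limit, since the spread between libraries is left out. The fitted log2 fold change was -5.67 (edgeR adjusted p = 0.0211), for a gene that entered the fit through the non-EGFP libraries alone. Of the 30 non-EGFP counts, 19 came from the plate 4 library. Within sequencing pool 1, which leaves plate 4 out, the call was not made (adjusted p = 0.102), and the gene was not retained by a stricter filter. *Piezo1* is overlapped on the other strand by *Ctu2* at its 3′ end and by *Gm20388* over its whole length. The strand setting of the counting is not given in the sources used here, so its counts are uncertain. *Gm20388* had no count in any library, and *Ctu2* averaged 3.99 CPM in Ret-EGFP+ against 6.32 CPM in non-EGFP cells and did not pass.

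*Piezo2* (chr18:63010213-63387183, minus strand), the touch channel of sensory neurons and Merkel cells, had 5 counts in Ret-EGFP+ library 3 and none in the other 9 sorted libraries. It did not pass the filter and was not tested. The count of 0 over the non-EGFP group allows up to 0.229 CPM. Counts in the sorted table are not all distinct molecules, so these 5 counts may be fewer than 5 molecules. A level below these limits was not detectable at this depth.

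**Figure D3:**
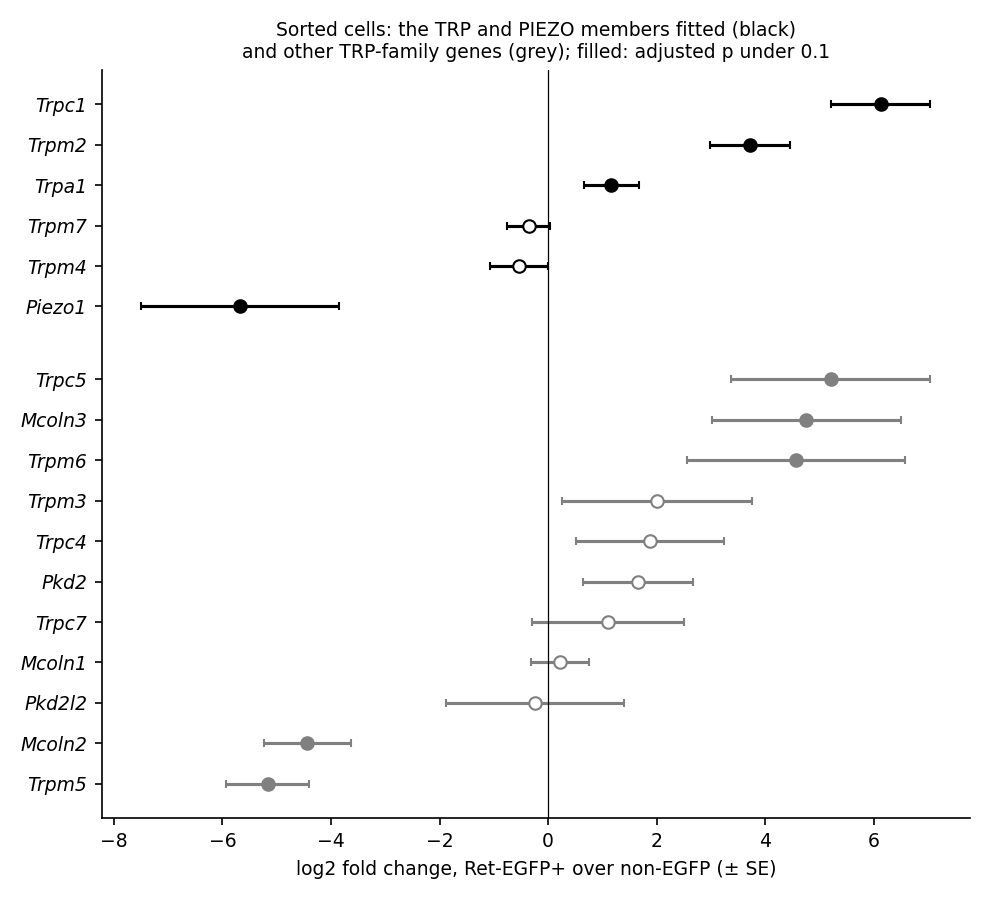
Log2 fold change of Ret-EGFP+ over non-EGFP cells (± SE, edgeR) for the 6 channel genes fitted (black) and for 11 other TRP-family genes fitted (grey). Filled points have an adjusted p under 0.1. *Trpc1* lies farthest to the right, and *Trpm5*, *Mcoln2* and *Piezo1* far to the left.

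The other TRP-family genes were sparse: 10 of 22 had no count in sorted cells and 11 were fitted. Among them the Ret-EGFP+ cells had 3 genes higher and 2 lower, beside 21.5% called each way over all genes. Their median log2 fold change was 1.66, beside 0.10 over all genes. Without Ret-EGFP+ library 2 there were 8 genes fitted, 1 higher and 2 lower, with a median of 0.57, and with filterByExpr 3 genes fitted, of which 2 were called, both lower, and a median of -4.37. The 2 lower genes were well counted in non-EGFP libraries only and entered the fit through them alone. Both therefore had to be lower, and their fitted values are given as a description. *Trpm5* had 7 counts in Ret-EGFP+ and 273 counts in non-EGFP libraries, and *Mcoln2* 8 and 220 counts in the same order. *Trpm5*, the taste-signalling channel of tuft cells, averaged 0.545 CPM in Ret-EGFP+ against 22.3 CPM in non-EGFP cells (log2 fold change -5.17 ± 0.77 SE, edgeR adjusted p = 8.81e-06). *Mcoln2*, a lysosomal channel, averaged 0.595 CPM in Ret-EGFP+ against 14.8 CPM in non-EGFP cells (log2 fold change -4.44 ± 0.80 SE, edgeR adjusted p = 0.000112).

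The 3 higher genes had few counts and were named after their values were seen. *Trpc5* had 24 counts in 3 Ret-EGFP+ libraries, *Mcoln3* 14 counts in 4 and *Trpm6*, the closest relative of *Trpm7*, 9 counts in 1, and none of these 3 had a count in non-EGFP cells. All 3 therefore entered the fit through the Ret-EGFP+ libraries alone and had to differ. DESeq2 called 1 of the 11 genes higher and 2 lower, and within sequencing pool 1 edgeR called 2, both lower, with 1 gene higher at an unadjusted p under 0.05. *Mcoln1*, the ubiquitous lysosomal channel, averaged 12.7 CPM in Ret-EGFP+ against 11.1 CPM in non-EGFP cells and did not pass, nor did *Pkd2*, *Trpc4* and *Trpc7*.

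Of 20 other mechanical and acid-sensing channel genes 10 were fitted, with 3 higher, 1 lower and a median log2 fold change of 0.62. Over all genes 21.5% were called higher and 21.5% lower. *Tmem63a*, an osmotically and mechanically gated channel, was higher at 22.7 CPM in Ret-EGFP+ against 9.64 CPM in non-EGFP cells (log2 fold change 1.32 ± 0.52 SE, edgeR adjusted p = 0.0504). *Tmc6* averaged 22.7 CPM in Ret-EGFP+ against 9.03 CPM in non-EGFP cells (edgeR adjusted p = 0.0701), and *Tmc5* was lower at 5.85 CPM in Ret-EGFP+ against 19.6 CPM in non-EGFP cells (edgeR adjusted p = 0.0145). The third higher gene, *Asic2*, a proton-gated channel of neurons, rested on 15 counts in 2 Ret-EGFP+ libraries (chosen after its values were seen). It had no count in non-EGFP cells, so it entered the fit through the Ret-EGFP+ libraries alone and had to differ. None of the 3 higher genes passed at an adjusted p under 0.05, and 1 gene was called higher without non-EGFP library 1, without Ret-EGFP+ library 3 or within sequencing pool 1. With total counts alone 5 were higher and 1 lower. *Tmc4*, the most counted gene of the list, averaged 85.1 CPM in Ret-EGFP+ against 62.6 CPM in non-EGFP cells and did not pass (log2 fold change 0.45), nor did *Asic5*, *Kcnk10* and *Tmem63b*. Of 18 partner and activator genes fitted, 4 were higher and 4 lower, near the share of 21.5% each way over all genes. Their median was 0.16. There were 2 higher without Ret-EGFP+ library 4, 2 lower without non-EGFP library 1, and 8 higher and 2 lower with total counts alone. The higher genes were *Abcc8*, *Orai2*, *Stim2* and *Slc41a1*, and the lower ones *Cd38*, *Cnnm4*, *Magt1* and *Mrs2*. Of these *Stim2*, *Slc41a1*, *Magt1* and *Mrs2* were chosen after their values were seen.

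As a description of which genes followed the same pattern, log2(CPM + 1) of each channel gene was correlated with that of 9311 other genes over the 10 sorted libraries, which share a group difference and plates. For *Trpc1* the highest Pearson r values were 1.00 with *Col8a1*, 0.99 with *Kcnk16* and 0.98 with *Rprm*, and 519 genes were above 0.9. For *Trpa1* they were 0.97 with *Cdc42bpa*, 0.96 with *Ythdf3* and 0.96 with *Foxo1*, and for *Trpm2* 0.98 with *Ulk2* and 0.97 with *Pla2g7*, with 42 genes above 0.9 for each. *Trpm4* was most like *Rrp8*, *Mccc2* and *Bphl* (0.93, 0.91 and 0.91) and *Trpm7* most like *Trit1*, *Acad9* and *Prpsap2* (0.93, 0.92 and 0.87).

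In organoids the question was whether 4 days of GDNF changed these transcripts. None of the 4 channel genes that passed the filter was called (edgeR adjusted p under 0.1 over 12170 genes), and none had an unadjusted p under 0.05. DESeq2 called none either and gave no adjusted p for *Trpa1*. Calls were rare in this comparison, with 0.534% of all genes tested higher with GDNF and 0.131% lower. EC cell markers included 2 called genes of 14, *Tph1* at 28.1 CPM in GDNF and 15.2 CPM in control organoids (log2 fold change 0.87 ± 0.20 SE, edgeR adjusted p = 0.0156) and *Tac1*, the gene of substance P, at 75.5 CPM in GDNF and 44 CPM in control organoids (0.79 ± 0.15 SE, edgeR adjusted p = 0.00123). None of 14 general EEC markers was called. They were sparse here, with summed levels of 59.6 to 93.4 CPM in GDNF and 61.5 to 90.0 CPM in control organoids. With filterByExpr 5 of them were fitted, and the list held no hormone gene. Markers of other lineages moved as well: 6 of 11 goblet and Paneth cell markers rose with GDNF (among them *Ang4*, *Agr2*, *Spink4* and *Clca1*), as did, of 12 enterocyte and stem cell markers, the stem cell genes *Smoc2*, *Olfm4* and *Lgr5*. Without GDNF library 2 of experiment 2, 3 goblet and Paneth and 1 of the EC cell markers were called, and without control library 1 or GDNF library 2 of experiment 3, 1 enterocyte and stem cell marker. Without experiment 3, 2 goblet and Paneth and 1 of the EC cell markers were called, and 4 enterocyte and stem cell markers were higher only at an unadjusted p under 0.05. None of 5 tuft cell markers and of 8 stromal, endothelial, neural and immune markers fitted was called. The part of these markers in the values below was not tested. *Ret* had 17 counts in GDNF and 22 counts in control organoids.

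**Figure D4:**
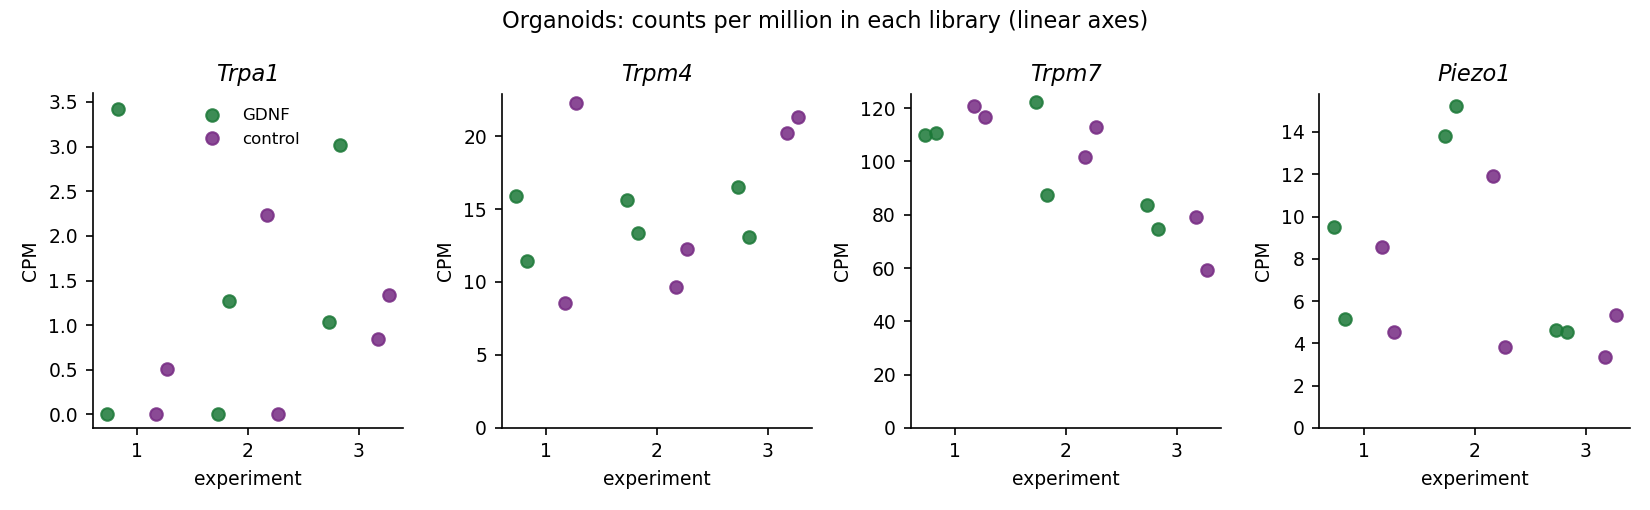
Level of the 4 channel genes fitted in organoids, as CPM in each library on linear axes, by experiment, with GDNF (green) left of control (purple). The treatments overlap for all 4 genes over the 12 libraries, and *Trpm7* lay lowest in experiment 3.

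*Trpa1* was barely detected in organoids. GDNF libraries held 0 and 6 counts in experiment 1, 0 and 2 in experiment 2 and 2 and 6 in experiment 3. Control libraries held 0 and 1 counts in experiment 1, 3 and 0 in experiment 2 and 1 and 2 in experiment 3. The sums were 16 counts with GDNF and 7 counts in control, or 1.46 ± 1.47 CPM and 0.818 ± 0.860 CPM in the same order (SD, n = 6 each). The log2 fold change was 0.82 ± 0.79 (SE, edgeR adjusted p = 0.93, approximate 95% interval -0.72 to 2.36), an interval that encloses the fitted change of *Tph1*. Per 100 *Tph1* counts there were 5.65 *Trpa1* counts with GDNF and 5.30 in control, while the log2 ratio, with 1 CPM added, differed by -0.58, the opposite direction (exact permutation test within experiments, two-sided, p = 0.389). In the 4 libraries with no *Trpa1* count this ratio is set by *Tph1* and the added CPM alone, so it moves down where *Tph1* is higher. That difference was -0.16 without control library 1 of experiment 2, the library with 3 *Trpa1* counts beside 8 *Tph1* counts. Its sign turned with the denominator (0.66 per *Chga*, 0.36 per *Ddc*, 0.07 per *Chgb* and 0.12 per the sum of 14 EC markers), and no such test passed.

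*Piezo1* was more readily counted in organoids than in sorted cells, under the same limit of the overlapping genes, although the tables were scaled separately and no test was made between them. It had 15 and 9 counts in GDNF libraries of experiment 1, 15 and 24 in experiment 2 and 9 and 9 in experiment 3. Control libraries had 9 and 9 counts in experiment 1, 16 and 5 in experiment 2 and 4 and 8 in experiment 3. The means were 8.81 ± 4.81 CPM with GDNF and 6.26 ± 3.32 CPM in control (SD, n = 6 each), and the log2 fold change was 0.45 ± 0.32 (SE, edgeR adjusted p = 0.869, approximate 95% interval -0.17 to 1.08). *Piezo2* had no count in any of the 12 organoid libraries, which allows up to 0.303 CPM with GDNF and 0.359 CPM in control.

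*Trpm7* gave the most precise comparison, with 74.5 to 122 CPM in GDNF libraries and 59.3 to 121 CPM in control libraries. Its log2 fold change was 0.01 ± 0.11 (SE, edgeR adjusted p = 0.999), with an approximate 95% interval of -0.21 to 0.22. *Trpm4* held 11.4 to 16.5 CPM with GDNF and 8.55 to 22.2 CPM in control, a log2 fold change of -0.18 ± 0.22 (SE, edgeR adjusted p = 0.948, approximate 95% interval -0.62 to 0.25). *Trpm2* had 1 count with GDNF and 3 counts in control, and *Trpc1* 8 counts with GDNF and 3 counts in control. Neither was fitted. Their mean levels with GDNF were 0.106 CPM for *Trpm2* and 0.816 CPM for *Trpc1*, beside 22.8 CPM and 14.4 CPM in Ret-EGFP+ cells of the separately scaled table.

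The effect of GDNF was also compared between experiments. None of the 4 genes was called (edgeR interaction test, adjusted p = 0.99 for each), and 0.0493% of all genes tested were. For *Trpm4* the log2 fold changes were -0.30 ± 0.38, 0.39 ± 0.42 and -0.49 ± 0.36 (SE) in experiments 1, 2 and 3, and for *Piezo1* 0.25 ± 0.55, 0.88 ± 0.50 and 0.05 ± 0.63. For *Trpm7* they were -0.10 ± 0.18, -0.05 ± 0.19 and 0.20 ± 0.20, and for *Trpa1* 2.19 ± 1.56, -0.56 ± 1.58 and 0.83 ± 1.24. No list of related channel or partner genes held a called gene: 0 of 5 other TRP-family genes, 0 of 8 mechanical and acid-sensing channel genes and 0 of 18 partner genes fitted. With experiment means removed, over the 12 organoid libraries and 8935 genes, *Piezo1* was most like *Gcnt3* (Pearson r = 0.93), *Trpm4* most like *Poldip2* (0.90) and *Trpm7* most like *Senp5* (0.94).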

How the data were processed

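Libraries were 3′ end RNA sequencing with barcoded oligo-dT primers. The authors mapped them to GRCm38 (STAR 2.7.8a) and counted molecular identifiers per Ensembl gene with BRB-seqTools, and the deposited values are raw counts. Of the sorted-cell values, 32 exceed the 65536 sequences that an 8-nucleotide identifier can take, so intervals and floors, which cover counting error only, may be too narrow. Conditions, plates and sequencing pools came from the deposited sample sheets. The mouse is not given per sorted library, so libraries of 1 mouse were treated as independent and p-values may be too small. An entry for TdTomato was left out.

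A gene entered the fit with a total of 5 or more counts and a normalized mean of 1 or more. The test was that of edgeR 4.0.16 under R 4.3.3 (TMM, quasi-likelihood, Benjamini-Hochberg over all genes, called at an adjusted p under 0.1), with the experiment as a block in organoids, since an experiment is 1 mouse. DESeq2 1.42.0, other scalings, filters, covariates and left-out libraries were alternatives. SE is the absolute log2 fold change over the square root of F. Fits were tested on simulated data. Of 4 planned ratios per *Tph1*, those of *Piezo2* were void and entered the adjustment of the exact permutation tests as 1. Named are the 7 genes, up to 4 called genes by p averaging 10 counts or more and up to 4 uncalled genes by counts of each list, and the closest correlates. The genes and lists were chosen with earlier results of these data known. A further TRP-family gene and a correlate are not reported here.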

Additional observations from a re-analysis of the deposited data

Results flagged for a closer look

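The spread of each of the 7 genes, and of the log2 ratio of *Trpa1* to *Tph1*, was examined within each group with Dixon's 95% criterion, which chance alone passes in about 1 in 20 groups. It was passed in 6 of 28 groups, but in 3 of them only 1 library had a count, which passes by construction, so the number is no test. In sorted cells the library that stood apart for *Trpm7* was non-EGFP library 4, with 108 CPM beside 29.8 CPM in the next library. For *Piezo2* it was Ret-EGFP+ library 3 (2.40 CPM, all others 0) and for *Trpc1* non-EGFP library 2 (0.728 CPM, all others 0). In organoids *Trpm2* stood apart in library 1 of experiment 1 of both treatments (0.635 CPM with GDNF and 1.90 CPM in control), which are 1 and 2 counts. The log2 ratio of *Trpa1* to *Tph1* stood apart in control library 1 of experiment 2, at -1.10 beside -3.13 in the next library.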

How the results depend on the processing

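In sorted cells *Trpm2* kept its call in all 20 alternatives, and the number of the 7 genes called higher was 2 or 3 in each of them. The number called lower was 0 with filterByExpr, within sequencing pool 1 and without plate 4 (added after the data were seen, the same libraries as pool 1), where *Piezo1* was lost, and 1 elsewhere. *Trpm4* and *Trpm7* turned to 0.055 and 0.20 with total counts alone, and *Trpm7* to 0.30 without non-EGFP library 4 (-0.58 to 0.30 over left-out libraries). With single libraries left out, 2 to 3 genes were called higher, 1 lower and 5127 to 5743 of all genes, against 5782. The *Trpa1* to *Tph1* difference was -2.77 to -2.18 without single libraries, -2.30 with 0.5 CPM added (adjusted p = 0.0635 by the exact permutation test), -2.08 without plate 4, -0.62 per *Tac1* and -0.83 per *Ddc*, the last 3 no longer past the adjusted threshold. The causes were not tested.

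In organoids none of the 4 genes fitted was called in any of 27 alternatives (26 for *Trpa1*). Of all genes 81 were called with the experiment as a replicate block, 7 with no replicate block, 3 within experiment 1, 18 within experiment 2, 35 without experiment 2, 46 without experiment 3 and 49 to 92 without single libraries. Counts summed per experiment and treatment, with the replicate block, also called none of them. Uncalled values changed sign for *Trpm7* (-0.11 within experiment 1, -0.059 within experiment 2, -0.078 without experiment 3, -0.0095 with no replicate block, and -0.060 to 0.076 without single libraries, among them -0.044 and -0.024), *Trpm4* (0.38 within experiment 2, 0.0067 without experiment 3, and -0.30 to 0.024 without single libraries) and *Trpa1* (-0.57 within experiment 2). The *Trpa1* to *Tph1* difference, -0.76 to -0.16 without single libraries, was 0.66 per *Chga*, 0.36 per *Ddc*, 0.070 per *Chgb* and 0.12 per the sum of 14 markers. Under 20 counts per group limit *Trpa1*, *Trpm2* and *Trpc1* in organoids.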
